A study of Homo sapiens with 9 samples.

Results

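The comparison described here set 3 libraries of SKOV3 cells labelled sh3 against 3 libraries labelled sh1. SKOV3 is an established human ovarian cancer cell line. All 9 libraries of the series came from SKOV3 cells that had received a lentivirus: 3 carry the genotype STXBP6 knockdown_1 (sh1), 3 carry STXBP6 knockdown_3 (sh3) and 3 carry NC (shNC) by label, and lentiviral transduction is given for every group. The 6 hairpin libraries, of 9 in all, were compared gene by gene over 36785 genes, of which 21296 had enough counts to be tested, and the shNC libraries served to place each difference. Nothing in the labels tells if replicates were grown apart, or if each line was 1 clone or a pool, and a p-value here therefore describes no more than library-to-library spread. Below, sh1, sh3 and shNC are label names only, each for the 3 libraries that carry it.

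A short hairpin RNA made from an integrated lentivirus is cut by the cell's own microRNA enzymes into a guide strand, which Argonaute proteins use to silence transcripts that match it. A guide can also repress transcripts that match only its seed, and a gene is therefore commonly targeted with more than 1 hairpin. STXBP6 encodes amisyn, a protein that binds syntaxin in the SNARE complexes through which vesicles fuse with the plasma membrane. The sequences of the hairpins were not analysed here.

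STXBP6 itself (ENSG00000168952, GRCh38 chromosome 14, 24809454 to 25050147, minus strand) was close to the detection limit in every library. The sh1 libraries held 7, 4 and 26 counts, the sh3 libraries 20, 31 and 18 and the shNC libraries 4, 0 and 15. The ranges of the hairpins overlapped, and so did those of sh1 and shNC. All 3 sh3 values lay above all 3 shNC values, opposite to what a knockdown label names, at a log2 difference of 1.81 that did not pass the test (adjusted p = 0.23, edgeR), and that of sh1 against shNC was 0.87 (adjusted p = 0.56). As a share of the library totals the level was 0.186 ± 0.166 CPM (counts scaled to library size) with sh1 and 0.366 ± 0.128 CPM with sh3 (SD, n = 3), a log2 difference of 0.94 ± 0.96 (SE, adjusted p = 0.54, edgeR). By exact permutation of the 6 hairpin libraries (two-sided) p was 0.3, and a design of 3 against 3 cannot go below 0.1. The log2 difference was 1.97 without sh1 replicate 3 and 0.55 without sh1 replicate 2. At this depth the table showed no lowering of the target with either hairpin, and a difference between the hairpins at STXBP6 was not detectable.

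The libraries held between 57654447 and 69264400 counts. In a principal component analysis of the 6 hairpin libraries, component 1 held 35.6% of the variance and placed sh1 at -58.0 to -46.6 and sh3 at 46.3 to 56.0. Some transcripts were counted in the libraries of only 1 of the hairpins. Of the 36785 genes, 66 reached 5 counts or more in all 3 sh3 libraries while all 3 sh1 libraries stood at 0, and 24 genes showed the reverse. These numbers rose to between 102 and 134 and between 47 and 79 when any 1 of the 6 libraries was left out. On chromosome Y lie 7 of the 66 genes and 0 of the 24. In shNC 39 of the 66 genes and 21 of the 24 also had counts. Some of the 39 were missing with sh1 only, such as MASP1, with 62, 41 and 50 counts in shNC and 31, 26 and 79 in sh3. Several of the 66 encode plasma proteins made by the liver, and these are given with their values further on. Markers of hepatocytes had a summed level of 3.44 to 6.99 fragments per kilobase of transcript, scaled for depth (FPKM), in the sh3 libraries, 3.07 to 3.39 in sh1 and 1.06 to 1.21 in shNC. Most of the sh1 sum came from SERPINA1, which was lower with sh3, and without it the sums were 0.524 to 0.573 FPKM in sh1, 2.45 to 5.92 in sh3 and 0.444 to 0.600 in shNC. The part of these transcripts in other differences was not tested.

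Across the transcriptome the hairpin lines differed at 5507 of the 21296 tested genes (25.9%, adjusted p under 0.05, edgeR), 2737 higher with sh3 (12.9%) and 2770 lower (13%). Most of these differences were small, with a median absolute log2 difference of 0.32. A difference of at least 2-fold was found at 682 genes, 437 higher with sh3 (2.05% of the tested genes) and 245 lower (1.15%). Of the 437 genes, 211 had a shNC mean under 1 CPM, as had 125 of the 245. Among the 15002 tested genes at 1 CPM or more in shNC 5148 were called, with 226 at least 2-fold higher with sh3 and 120 at least 2-fold lower. Of the 6294 tested genes under 1 CPM, 219 were called higher and 140 lower. Genes at 1 CPM or more were thus called more often than all tested genes, which limits the called shares of gene lists below. A list share near that of these genes does not set the list apart from other expressed genes. The 3 values of one hairpin lay wholly above or below those of the other at 5460 of the 5507 called genes, and at 41.8% of all tested genes. The genes with the largest differences, at a mean of at least 1 FPKM in either line, are described first by what they encode.

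Vessel genes were among those with the largest rises with sh3. ANGPT2 (ENSG00000091879, chromosome 8, 6499632 to 6563409), a secreted ligand of the endothelial receptor TIE2 that loosens vessels, stood at 35.9, 32.8 and 33.3 CPM in the 3 sh1 libraries and at 475, 450.2 and 434 CPM in the 3 sh3 libraries. The shNC libraries held 468, 471 and 465 CPM, so that the sh3 values lay beside those of shNC and the sh1 values far below both. The log2 difference between the hairpins was 3.74 ± 0.04, a 13.3-fold higher level with sh3 (adjusted p = 5.7e-13, edgeR). PLVAP, which forms the diaphragms of endothelial fenestrae, had 8.87, 10.9 and 9.14 CPM with sh1, 47.6, 42.3 and 46.2 with sh3 and 59.0, 58.4 and 55.2 with shNC, again with the low values in sh1 and no overlap. KDR, the main receptor of VEGF, was at 7.43, 7.63 and 6.46 CPM with sh1 and 18, 19.2 and 17.9 with sh3, and its shNC libraries, at 11.9, 12.6 and 11.4 CPM, lay between both lines. The orphan receptor TIE1 had 1.94, 1.26 and 2.49 CPM with sh1 and 7.62, 6.64 and 7.37 with sh3, and ANGPT1, the stabilising counterpart of ANGPT2, differed by 1.36 ± 0.30 on the log2 scale at under 1 CPM in both lines.

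The list of angiopoietins, VEGF family members and other vessel factors did not move as a block. Of its 32 tested members 7 were higher with sh3 and 8 lower (46.9% called beside 25.9% of all tested genes). The median log2 difference was 0.02 beside 0.01 over all tested genes. The members lower with sh3 included SEMA3B, a secreted semaphorin that repels axons and vessels, at 34.6, 34.9 and 31.6 CPM with sh1 and 12.5, 13.8 and 11.1 with sh3, and the vasodilator peptide ADM at a log2 difference of -0.58 ± 0.11. VEGFA did not pass the test, at 127, 122 and 118 CPM with sh1 and 118, 121 and 118 with sh3. Beside these values, the markers of endothelial cells summed to 11.2 to 12.2 FPKM in sh1, 28.0 to 29.6 in sh3 and 32.5 to 34.4 in shNC. PLVAP, itself among the largest rises, made up most of that difference, and without it the sums were 7.65 to 7.91 in sh1, 10.5 to 11 in sh3 and 9.65 to 10.9 in shNC. The defining markers EMCN and VWF had 0 counts in all 3 sh3 libraries and the junction gene CDH5 had 19, 0 and 4.

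**Figure D1:**
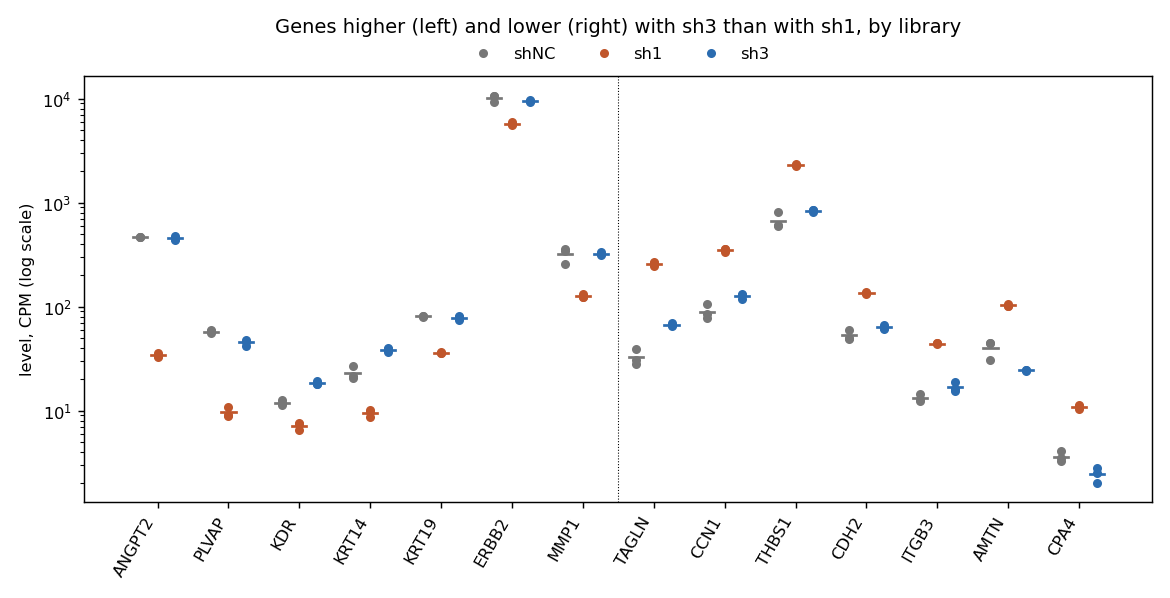
Level of 14 genes in each of the 9 libraries, in CPM on a log axis; points are libraries, bars are the means of 3, and colours are the groups. The sh1 points (orange) lie below the sh3 points (blue) for the 7 genes on the left and above them for the 7 genes on the right, and for ANGPT2 the sh3 points sit beside the grey shNC points.

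Other genes with large rises with sh3 came from several families. PI16, a secreted peptidase inhibitor, was at 0.445, 0.673 and 0.527 CPM with sh1, 6.15, 6.05 and 6.74 with sh3 and 8.98, 9.89 and 7.71 with shNC. The ubiquitin ligase NEURL1 had 4.25, 2.69 and 3.25 CPM with sh1, 19.3, 20.1 and 18.8 with sh3 and 33.3, 31.0 and 52.2 with shNC. In both genes the sh1 values were the lowest of the 9, and the log2 differences between the lines were 3.52 ± 0.17 and 2.51 ± 0.20. FLNC, the muscle filamin that crosslinks actin, followed another order, with 17.9, 19.1 and 17.0 CPM in sh3 and 2.83, 3.23 and 3.87 in sh1, near the 2.32, 1.72 and 3.57 of shNC. Its log2 difference was 2.44 ± 0.22 (adjusted p = 1.1e-05, edgeR), and only the sh3 libraries stood apart. LRRC38, an auxiliary subunit of potassium channels, and UCHL1, a neuronal deubiquitinase, differed by 2.49 ± 0.15 and 2.06 ± 0.19.

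Keratins and a short list of identity genes of the line leaned towards higher levels with sh3. Of 14 tested keratins 7 were higher with sh3 and 3 lower (median log2 difference 0.53), or 71.4% called beside 25.9% of all tested genes. Of the 10 identity genes of the line 7 were higher and 1 lower (median 0.48, 80% called). These 10 include the keratins KRT7, KRT8, KRT18 and KRT19, so the lists share members. They also include ERBB2, STARD3 and GRB7, neighbours in an amplified segment. A wider list of epithelial genes, given below, was nearly even. KRT14, the basal-layer keratin, had 9.72, 8.73 and 10.1 CPM with sh1, 39.1, 39.8 and 36.9 with sh3 and 20.6, 21.4 and 26.7 with shNC. KRT16, a keratin of wounded and activated epidermis, stood at 0.214, 0.449 and 0.366 CPM with sh1 and 3.19, 2.48 and 2.71 with sh3. The simple-epithelial keratin KRT19 was at 36.0, 35.6 and 36.6 CPM with sh1 and 80.6, 79.9 and 74.5 with sh3, a log2 difference of 1.12 ± 0.04. In each of the 3 genes the lowest sh3 value was above the highest sh1 value. The abundant pair KRT8 and KRT18 rose less, by 0.60 ± 0.03 and 0.51 ± 0.03.

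Keratins of the same line also moved the other way. KRT7, a keratin of ovarian and other glandular epithelia, had 185, 193 and 194 CPM with sh1 and 109, 113 and 104 with sh3 (log2 difference -0.81 ± 0.04), and KRT80 had 230.1, 239 and 244 CPM with sh1 and 109, 112 and 101 with sh3 (log2 difference -1.15 ± 0.08). ERBB2, the receptor tyrosine kinase whose gene is amplified in SKOV3, was among the most abundant transcripts, with a mean of 500.4 ± 17.8 FPKM in sh1, 853 ± 22.6 in sh3 and 910.1 ± 64.6 in shNC (SD, n = 3). Its log2 difference was 0.74 ± 0.04 (adjusted p = 3.6e-07, edgeR), and the neighbouring genes of the amplified segment, STARD3 and GRB7, differed by 0.44 ± 0.04 and 0.43 ± 0.08. ELF3, an epithelial transcription factor, and CLDN7, a tight-junction protein, were higher with sh3 by 1.27 ± 0.08 and 1.02 ± 0.08, while OCLN and SPINT1, an occluding junction protein and a membrane protease inhibitor, were lower, at -0.85 ± 0.09 and -0.83 ± 0.10. Over the whole list of epithelial junction and identity genes 11 of 38 tested members were higher and 9 lower, with a median of 0.04. That is 52.6% called, beside 25.9% of all tested genes. Without sh3 replicate 2 the higher members numbered 7.

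A set of genes that SKOV3 libraries hardly held with sh1 or shNC was counted with sh3. Albumin, ALB (chromosome 4, 73397114 to 73421482), the main plasma protein made by hepatocytes, had 12, 0 and 8 counts in the sh1 libraries, 22, 18 and 11 in shNC and 340, 339 and 967 in sh3. Replicate 3 of sh3 held the highest count, and the log2 difference of 6.34 ± 0.67 was 5.62 without that library, 7.09 without sh1 replicate 1 and 5.80 without sh1 replicate 2. APOB, the structural protein of low-density lipoprotein, had 130, 165 and 277 counts in sh3 and 0 in every sh1 library. Transferrin, TF, had 88, 59 and 232 counts in sh3 and 0, 4 and 0 in sh1, and the fibrinogen chain FGB had 114, 88 and 180 counts in sh3 and 4, 11 and 4 in sh1. In these genes, too, replicate 3 of sh3 was the highest library. Another fibrinogen chain, FGG, the vitamin D carrier GC and the kinin precursor KNG1 had 0 counts in the other 6 libraries. In the sh3 libraries FGG had 48, 27 and 54 counts, GC had 36, 25 and 58 and KNG1 had 9, 8 and 35.

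Of 29 tested liver plasma protein genes 13 were higher with sh3 and 4 lower (58.6% called beside 25.9% of all tested genes). Their median log2 difference was 0.59. On FPKM values with a mean of at least 0.5 limma called 2 higher. The direction was not shared by every liver gene. SERPINA1, the inhibitor of neutrophil elastase, stood at 15.2, 13.8 and 15.4 CPM with sh1 and 5.33, 5.26 and 5.66 with sh3, and RBP4, the plasma carrier of retinol, at 5.06, 4.37 and 5.20 CPM with sh1 and 2.18, 2.71 and 3.45 with sh3, both lower with sh3. CPS1, a mitochondrial enzyme of the urea cycle, had 314, 284 and 398 counts with sh1 and 314, 287 and 287 with sh3 and did not pass the test.

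The transcripts counted with sh3 and not with sh1 were not all of the liver. GRHL2 and OVOL1, transcription factors that hold cells in an epithelial state, had 0 counts in the other 6 libraries. In sh3 GRHL2 had 31, 22 and 23 counts and OVOL1 had 12, 24 and 12. VCAM1, an adhesion receptor of activated endothelium, had 149, 136 and 147 counts in sh3, 0 in sh1 and 0, 4 and 8 in shNC. The neuropeptide precursor NTS had 19, 23 and 169 counts and the chemokine CX3CL1 22, 31 and 82, in both cases with replicate 3 of sh3 highest and 0 in the other 6. BRINP1, a neural gene, had 72, 57 and 42 with replicate 3 lowest. Between the 3 sh3 libraries these counts were near equal for VCAM1 and several-fold apart for NTS. The source of these transcripts was not tested. Of the 66 genes 27 also had 0 counts in every shNC library, as had 3 of the 24 genes of sh1, among them the hair keratin KRT83 (30, 9 and 12 counts) and KRT75 (10, 8 and 22). The other 39 of the 66 had counts in shNC.

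ALDH1A1, a retinaldehyde dehydrogenase used as a marker of stem-like tumour cells, had 11, 0 and 14 counts with sh1, 251, 243 and 458 with sh3 and 29, 9 and 15 with shNC (log2 difference 5.24 ± 0.64, adjusted p = 0.00011, edgeR). CHRDL1, a secreted antagonist of bone morphogenetic proteins, had 14, 19 and 0 counts with sh1 and 296, 363 and 322 with sh3. Its log2 difference of 4.83 ± 0.94 was 4.21 without sh1 replicate 3 and 5.53 without sh1 replicate 2, and the call was lost with DESeq2 (adjusted p = 0.087). Both genes had sh3 values above all 6 others. The part of the liver transcripts and of the genes on chromosome Y in these rises was not tested.

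**Figure D2:**
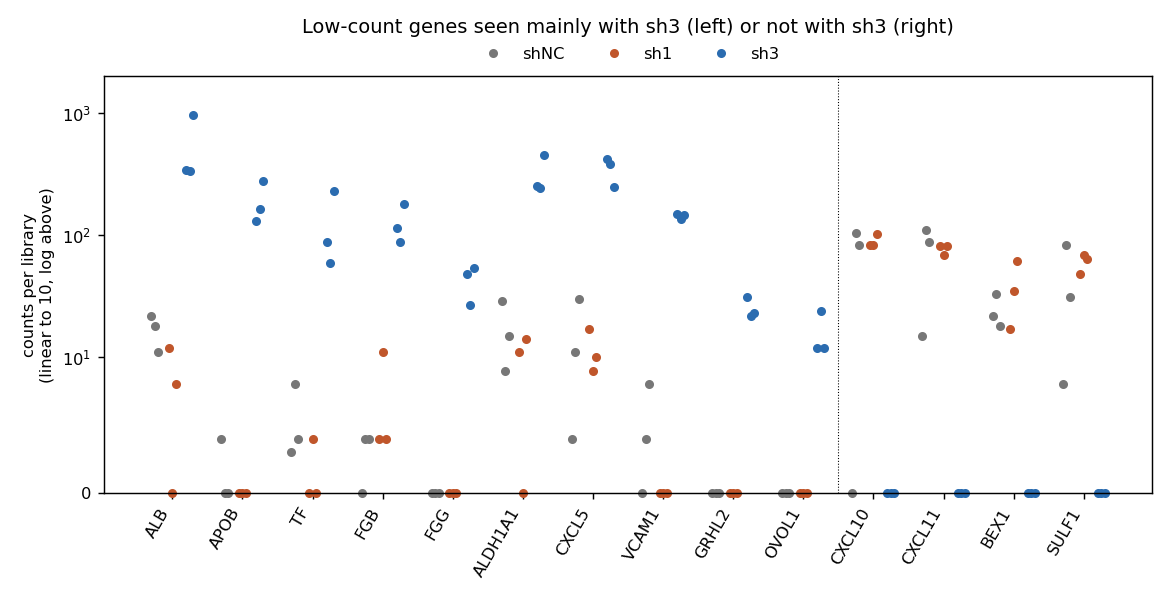
Counts of 14 low-count genes in each library, on an axis that is linear up to 10 and logarithmic above; points are libraries and colours are the groups. The 10 genes on the left have their highest counts in the 3 sh3 libraries (blue), with ALB reaching 967, while the 4 genes on the right have 0 counts in all 3 sh3 libraries.

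In the other direction, actin-binding and matricellular genes were among those lower with sh3 and thus higher with sh1. The largest falls, of CXCL10, MMP3, TNFAIP6 and IGFL3, follow further on. TAGLN (ENSG00000149591, chromosome 11, 117199370 to 117207464), transgelin, an actin-crosslinking protein of smooth muscle, had 246, 267 and 259.7 CPM with sh1, 70.1, 64.6 and 66.7 with sh3 and 27.9, 30.9 and 39.4 with shNC. The 3 groups did not overlap, with sh3 between shNC and sh1. The log2 difference was -1.94 ± 0.09, a 3.84-fold higher level with sh1 (adjusted p = 1e-07, edgeR). LCP1, the leukocyte plastin that bundles actin and is often expressed in carcinomas, followed the same order with 15.5, 16.2 and 13.3 CPM in sh1, 5.49, 4.56 and 4.50 in sh3 and 1.08, 0.970 and 1.95 in shNC. Of 32 tested contractile and plastin genes 19 were lower with sh3 and 3 higher (68.8% called beside 25.9% of all tested genes). Their median log2 difference was -0.14. FLNC and the bundling protein FSCN1 (0.41 ± 0.03) were among the 3 that were higher, a number that was 5 without shNC replicate 3. NEXN, an actin-binding protein of muscle Z-discs outside that list, was at 18.1, 17.6 and 16.7 CPM with sh1 and 6.66, 5.22 and 6.75 with sh3, where the sh3 range overlapped that of shNC (4.92, 5.49 and 7.65 CPM).

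Matricellular proteins, which are secreted into the matrix and act on cells rather than build it, gave some of the largest absolute differences. CCN1 had 333, 356 and 355 CPM with sh1, 117, 134 and 129 with sh3 and 78.3, 84.7 and 106 with shNC. THBS1, thrombospondin, an inhibitor of vessel growth and activator of TGF-beta, was one of the abundant transcripts, at 226 ± 4.34 FPKM in sh1, 84.4 ± 2.51 in sh3 and 67.4 ± 11.9 in shNC (SD, n = 3). The log2 differences were -1.46 ± 0.09 and -1.45 ± 0.09. THBS1-IT1, which lies inside THBS1, differed by -2.18 ± 0.35, and since no source used here tells whether counting used the strand, its reads cannot be told from those of its host.

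Promoter sequence was looked at for the genes with the largest differences, with the letters that AP-1 and the TEAD factors are known to bind. RefSeq promoters (GRCh38.p14, the 250 bases before each start) were found for 11 of the 15 genes lowest with sh3, 12 promoters in all, and for 11 of the 15 genes highest with sh3, with 11 promoters. The AP-1 letters TGANTCA, searched on both strands, were in 4 of the 12 promoters of genes lower with sh3, in 0 of the 11 of genes higher with sh3 and in 6.57% of all 35116 promoters of that length. The TEAD letters GGAATG, also on both strands, were in 3 of the 12, in 2 of the 11 and in 11.9% of all. The stretches that carry the AP-1 letters are given in the direction of transcription, with the match in capitals, together with MMP10, a stromelysin that was higher with sh3 and has the same letters.
CPA4: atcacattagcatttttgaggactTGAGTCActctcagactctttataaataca
IGFL3: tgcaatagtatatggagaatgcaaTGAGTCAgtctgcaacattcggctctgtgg
SERPINB2: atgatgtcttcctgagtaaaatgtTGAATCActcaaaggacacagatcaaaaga
TNFAIP6: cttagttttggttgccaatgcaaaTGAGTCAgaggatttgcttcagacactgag
MMP10: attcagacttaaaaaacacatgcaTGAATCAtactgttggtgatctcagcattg

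These lie at chr7:130293089-130293142 (plus strand) for CPA4, chr19:46124871-46124924 (minus strand) for IGFL3, chr18:63887579-63887632 (plus strand) for SERPINB2, chr2:151357439-151357492 (plus strand) for TNFAIP6 and chr11:102780666-102780719 (minus strand) for MMP10. A second AP-1 match lies in the CPA4 promoter closer to its start. The GGAATG letters are shown in capitals for CPA4 and NEXN, both lower with sh3, for THBS1, chosen from the lists after its values were seen, and for PLVAP, which was higher with sh3.
CPA4: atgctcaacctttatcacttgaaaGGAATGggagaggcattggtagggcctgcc
NEXN: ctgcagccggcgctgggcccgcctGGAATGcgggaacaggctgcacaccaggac
THBS1: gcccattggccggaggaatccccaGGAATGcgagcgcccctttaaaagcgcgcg
PLVAP: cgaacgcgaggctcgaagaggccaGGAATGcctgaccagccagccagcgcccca

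Their positions are chr7:130293003-130293056 (plus strand), chr1:77888520-77888573 (plus strand), chr15:39581009-39581062 (plus strand) and chr19:17377534-17377587 (minus strand) in that order. A match describes the letters only, and matches were found in genes of both directions.

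The genes with these promoters had the following levels. CPA4, a secreted carboxypeptidase, was at 11.2, 10.3 and 11.2 CPM with sh1, 2.83, 2.03 and 2.50 with sh3 and 3.47, 3.25 and 4.12 with shNC. IGFL3, a small secreted protein of the insulin growth factor-like family, was at 1.99, 1.55 and 1.51 CPM with sh1, 0.161, 0.116 and 0.229 with sh3 and 0.297, 0.194 and 0.103 with shNC. SERPINB2, an intracellular plasminogen activator inhibitor, had 3.43, 4.16 and 4.04 CPM with sh1 and 0.644, 1.01 and 0.638 with sh3, but the shNC libraries spread from 0.639 to 4.07 CPM, and its call was lost with limma on FPKM without a filter (adjusted p = 0.059). TNFAIP6, a hyaluronan-binding protein induced by inflammation, had 143, 124 and 119 counts with sh1 and 4, 13 and 0 with sh3. Its log2 difference of -4.49 ± 0.68 was -6.00 without sh3 replicate 2 and -3.93 without sh3 replicate 3. In all 4 genes the sh1 values were above the sh3 values.

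Targets of YAP and TEAD, the factors that read cell tension and density, were called in both directions. Of 29 tested members 13 were lower with sh3 and 10 higher (median log2 difference -0.16), a called share of 79.3% beside 25.9% of all tested genes. With limma on FPKM without a filter 7 were lower. CCN1 and the cardiac ankyrin-repeat protein ANKRD1 were among those lower, ANKRD1 at 6.97, 7.03 and 6.56 CPM with sh1 and 2.17, 4.08 and 4.61 with sh3 (log2 difference -0.92 ± 0.24, lost with limma on FPKM without a filter, adjusted p = 0.056). CCN2, a second matricellular target, was at 184, 203 and 193 CPM with sh1 and 109, 119 and 115 with sh3. FOXF2, a forkhead factor, and LATS2, the kinase that restrains YAP, were among those higher with sh3, by 0.47 ± 0.06 and 0.40 ± 0.05.

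Structural matrix and its receptors differed at many genes with mixed signs. Among 47 tested collagens, laminins and matrix glycoproteins 22 were lower with sh3 and 15 higher (median -0.18). That is 78.7% called, beside 25.9% of all tested genes. In this list 6 were at least 2-fold lower against 0 at least 2-fold higher. LUM, a leucine-rich proteoglycan that spaces collagen fibrils, had 21.2, 19.2 and 19.3 CPM with sh1, 9.23, 9.27 and 10.8 with sh3 and 29.1, 30.7 and 23.1 with shNC, the lowest values being those of sh3. Fibronectin, FN1, was at 161 ± 3.10 FPKM in sh1 and 109.8 ± 3.27 in sh3, and tenascin, TNC, at 81.7, 81.2 and 82.5 CPM with sh1 and 30.2, 32.2 and 34.4 with sh3. COL3A1, a fibrillar collagen, went the other way, at 7.38, 7.32 and 7.17 CPM with sh1 and 12.8, 14.3 and 15.2 with sh3. So did LOX, an oxidase that crosslinks collagen, at 26.2, 29.1 and 26.9 CPM with sh1 and 46.2, 46.8 and 48.1 with sh3. Among 36 integrins and focal adhesion genes 13 were lower and 9 higher (61.1% called). ITGB3, the beta chain of the vitronectin receptor, was at 44.9, 44.2 and 43.3 CPM with sh1, 16.3, 15.3 and 18.7 with sh3 and 14.4, 12.9 and 12.3 with shNC. TNS1, which ties integrins to actin, was at 33.2, 36.1 and 33.3 CPM with sh1 and 13.7, 14.5 and 12.5 with sh3. ITGA10 and FERMT1, a collagen receptor chain and an epithelial integrin activator, were higher with sh3, by 0.88 ± 0.19 and 0.82 ± 0.06.

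Genes of the mesenchymal state were split as well, with 12 of 28 higher with sh3 and 6 lower (median 0.20). That is 64.3% called, beside 25.9% of all tested genes. N-cadherin, CDH2, was at 136, 134 and 137 CPM with sh1, 61.4, 66.0 and 62.9 with sh3 and 50.2, 49.3 and 59.3 with shNC. The stromal protease FAP was at 12.8, 10.8 and 10.9 CPM with sh1 and 4.17, 4.61 and 5.61 with sh3. The metastasis-associated calcium-binding protein S100A4 had 254, 258 and 279 CPM with sh1, 501, 411 and 433 with sh3 and 597, 568 and 633 with shNC. The homeobox factor PRRX1 had 32.8, 30.2 and 30.7 CPM with sh1 and 54.2, 53.3 and 56.4 with sh3. Vimentin, VIM, did not pass the test, at 5477, 5540.1 and 5469 CPM with sh1 and 5373, 5471 and 5449.6 with sh3. E-cadherin, CDH1, was higher with sh3 at a low level, with 0.610, 0.898 and 1.13 CPM in sh1 and 2.11, 2.81 and 1.77 in sh3.

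Matrix proteases differed in both directions within a family. MMP3 (ENSG00000149968, chromosome 11, 102835801 to 102843609), the stromelysin that cleaves matrix and activates other proteases, had 781, 1008 and 1193 counts in the sh1 libraries, 0, 8 and 14 in the sh3 libraries and 296, 880 and 682 in shNC. Only the sh3 libraries were near 0. The log2 difference of -7.07 ± 0.60 (adjusted p = 7e-06, edgeR) was -6.44 without sh3 replicate 1 and -7.94 without sh3 replicate 3. On the same stretch of chromosome 11, MMP1, the interstitial collagenase, and MMP10 were higher with sh3. MMP1 was at 123, 124 and 133 CPM with sh1, 317, 311 and 336 with sh3 and 346, 359 and 259 with shNC. MMP10 was at 5.29, 6.35 and 4.75 CPM with sh1, 10.9, 10.9 and 9.83 with sh3 and 9.31, 7.77 and 8.14 with shNC. MMP28, a protease of keratinocytes, was at 0.494, 0.552 and 1.07 CPM with sh1 and 4.76, 4.42 and 4.89 with sh3, and the membrane collagenase MMP14 at 7.38, 5.87 and 7.69 CPM with sh1 and 13.4, 18.3 and 16.9 with sh3. ADAMTS5, the main aggrecan-degrading enzyme, went down with sh3, with 25.9, 27.3 and 27.2 CPM in sh1, 8.71, 8.30 and 7.93 in sh3 and 9.93, 8.06 and 11 in shNC. Of 34 tested proteases and inhibitors 9 were higher with sh3 and 12 lower (median -0.03), or 61.8% called beside 25.9% of all tested genes.

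**Figure D3:**
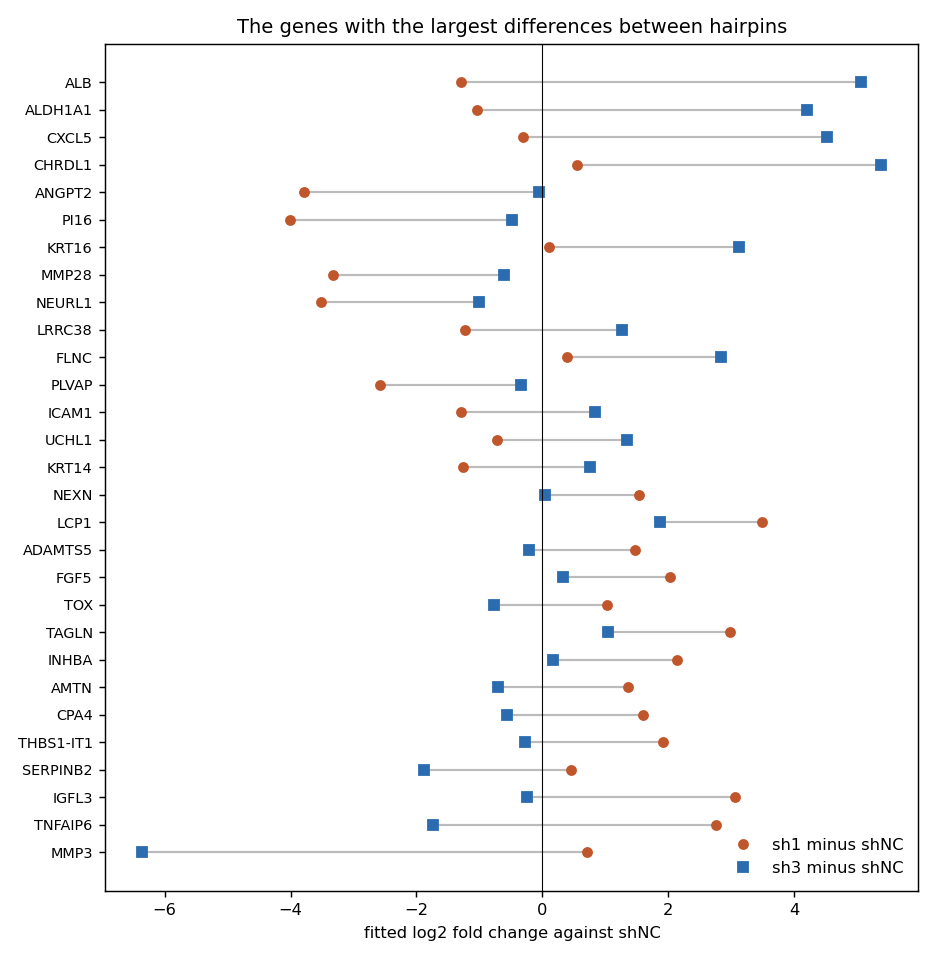
Fitted log2 fold change of sh1 (circles) and of sh3 (squares) against the shared shNC libraries for the 29 genes with the largest differences between the hairpins, CXCL10 left out because its sh3 counts are all 0. For ANGPT2 the square lies at -0.05 and the circle at -3.78, and among genes called against shNC in both lines those of KRT14, LRRC38, UCHL1, TOX, AMTN and CPA4 fall on opposite sides of 0.

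Chemokines differed by gene. CXCL10, an interferon-induced chemokine that draws T cells, had 83, 84 and 102 counts with sh1, 0 in all 3 sh3 libraries and 0, 104 and 84 in shNC, where replicate 1 was also at 0. Against a floor of 3 counts per library its level was at least 28.6-fold higher with sh1. Its neighbour CXCL11 had 81, 69 and 81 counts with sh1, 0 in the sh3 libraries and 15, 111 and 88 in shNC, again lowest in replicate 1 of shNC. CXCL5, a neutrophil chemokine, went the other way, with 17, 9 and 10 counts in sh1 and 421, 387 and 250 in sh3. The neutrophil chemokine CXCL8 was at 12.6, 14.3 and 13.4 CPM with sh1, 6.21, 8.47 and 7.34 with sh3 and 25, 38.8 and 25.8 with shNC, so that both hairpin lines lay below shNC and sh3 lowest. Of 19 tested chemokines 4 were higher with sh3 and 5 lower, or 47.4% called beside 25.9% of all tested genes.

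Inflammatory mediators other than chemokines were also mixed. The adhesion receptor ICAM1 had 0.560, 1.5 and 0.542 CPM with sh1, 2.84, 4.62 and 3.92 with sh3 and 2.94, 2.60 and 0.804 with shNC, and its log2 difference of 2.13 ± 0.48 was 2.78 without sh1 replicate 2. IL1A, an alarmin cytokine, stood at 2.77, 2.38 and 1.9 CPM with sh1, 5.65, 7.85 and 5.51 with sh3 and 18.9, 18.4 and 12.7 with shNC. Of 37 tested NF-kB and cytokine genes 8 were higher and 6 lower, or 37.8% called beside 25.9% of all tested genes. Among genes at 1 CPM or more in shNC 5148 of 15002 were called. In the NF-kB and cytokine list 13 were higher without shNC replicate 3 and 3 lower without sh1 replicate 1 or sh3 replicate 1. Type I interferon response genes leaned towards sh3, with 16 of 44 higher and 3 lower (median 0.10, 43.2% called). The antiviral genes TRIM22 (0.82 ± 0.10) and OAS2 (0.77 ± 0.17) were among the higher ones, whereas IFIT2 was lower (-0.84 ± 0.17). OAS2 and IFIT2 were not called by limma on FPKM without a filter (adjusted p = 0.062 and 0.053). Antigen presentation genes were called in both directions, 6 of 28 higher and 5 lower (39.3% called). HLA-C was at 0.26 ± 0.04 and the stress ligand MICB at -0.80 ± 0.10.

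Growth factors and their receptors separated the lines in several families. Activin, a dimer of the TGF-beta family encoded by INHBA, was higher with sh1, INHBA standing at 12.8, 13 and 13.1 CPM with sh1, 3.88, 3.18 and 2.86 with sh3 and 2.11, 3.16 and 3.54 with shNC. The inhibitor of differentiation ID2, a BMP target, had 11.3, 11.1 and 10.5 CPM with sh1 and 20.5, 20.0 and 18.7 with sh3. Over the TGF-beta and BMP pathway 11 of 49 tested genes were higher with sh3 and 13 lower (49.0% called beside 25.9% of all tested genes). FGF5 was at 15.7, 17.1 and 17.8 CPM with sh1, 4.34, 6.0 and 5.23 with sh3 and 3.50, 4.64 and 4.24 with shNC. FGFBP1, which releases FGFs from the matrix, had 21.4, 22.3 and 22.0 CPM with sh1, 46.2, 42.8 and 41.8 with sh3 and 222, 218 and 272 with shNC. IGFBP6, which binds IGF2, had 43.0, 41.1 and 43.3 CPM with sh1, 127, 128 and 128 with sh3 and 195, 195 and 161 with shNC. For FGFBP1 and IGFBP6 both hairpin lines were below shNC, and sh1 was the lower of them.

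Ligands of the EGF receptor family differed in opposite directions. NRG1, the ligand of ERBB3 and ERBB4, had 59.3, 60.8 and 56.3 CPM with sh1, 24, 25.3 and 24 with sh3 and 18.3, 18.2 and 21.3 with shNC. HBEGF, a ligand of EGFR, had 15.6, 15.1 and 15.5 CPM with sh1, 6.96, 8.08 and 7.55 with sh3 and 5.98, 6.59 and 6.89 with shNC, and both ligands were highest with sh1. Betacellulin, BTC, was higher with sh3 by 0.55 ± 0.18, a call lost under 12 of 17 alternatives, among them the omission of any 1 library except sh1 replicate 2. In the whole family 9 of 37 tested genes were higher and 9 lower, or 48.6% called beside 25.9% of all tested genes. Genes that report and restrain ERK signalling were mostly higher with sh3, 12 of 22 against 1 lower (median 0.34, 59.1% called), the 1 being HBEGF. Among them the phosphatase DUSP4 was at 24.9, 23.2 and 23.3 CPM with sh1, 46.1, 45.5 and 51.1 with sh3 and 36.1, 35.4 and 35.1 with shNC. The receptor feedback inhibitor SPRY1 was at 7.5, 6.44 and 8.6 CPM with sh1, 15.3, 16.3 and 16.5 with sh3 and 20.5, 19.5 and 19.4 with shNC.

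Wnt and Notch genes and immediate early genes gave further named differences. WNT9A, a secreted Wnt ligand, was at 33.6, 34.0 and 33.6 CPM with sh1, 93.8, 93.4 and 97.4 with sh3 and 54.1, 53.7 and 49.9 with shNC. SFRP1, which captures Wnt ligands, was at 89.2, 92.4 and 88.6 CPM with sh1, 192, 199.8 and 200.4 with sh3 and 180.3, 181 and 155 with shNC. In the Wnt list 10 of 35 tested genes were higher with sh3 and 3 lower, or 37.1% called beside 25.9% of all tested genes. Among genes at 1 CPM or more in shNC 5148 of 15002 were called. KLF2, a factor induced by flow and statins, had 8.49, 8.99 and 6.92 CPM with sh1 and 19.9, 23.9 and 23.7 with sh3, and BTG1, an antiproliferative gene, had 35.2, 36.7 and 35.9 CPM with sh1 and 67.8, 66.8 and 67.1 with sh3. EGR1 and the AP-1 subunit FOSL2 were lower with sh3, at -0.63 ± 0.09 and -0.49 ± 0.03 on the log2 scale. In their list 8 of 28 were higher and 3 lower (39.3% called). The Notch target HES4 was at -0.89 ± 0.13 and HES2 at 0.54 ± 0.07. With all libraries 9 of 29 Notch genes were higher and 5 lower (48.3% called). The lower ones numbered 3 without sh1 replicate 1 or 2 or sh3 replicate 1 or 3.

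**Figure D4:**
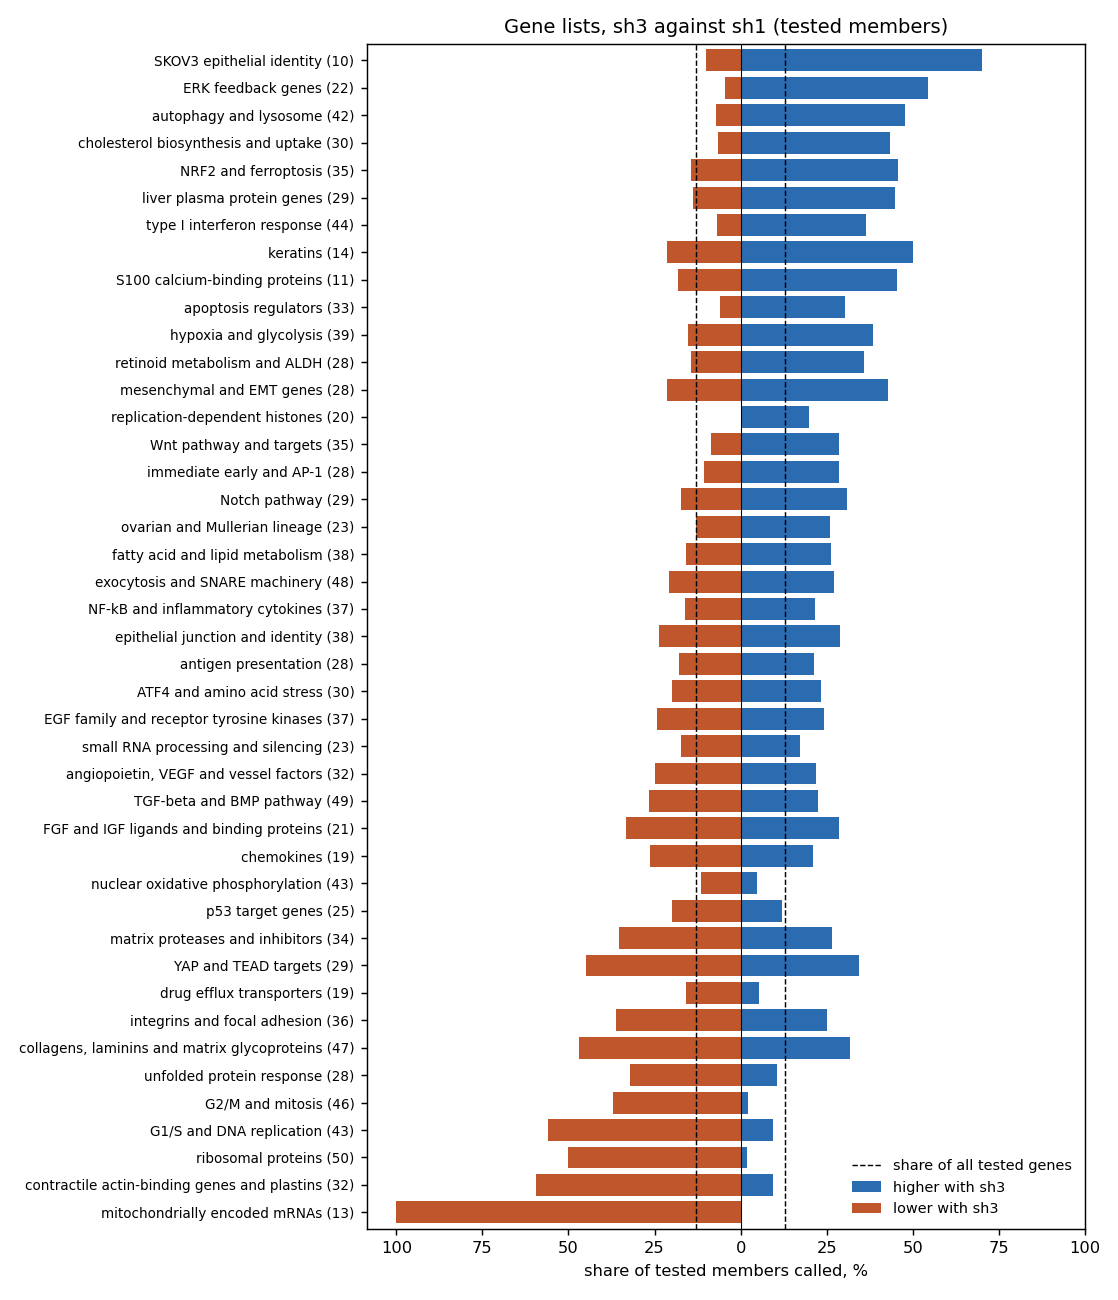
Share of the tested members of each gene list called higher (blue, to the right) or lower (orange, to the left) with sh3 than with sh1, for lists with at least 10 tested members (number in brackets); dashed lines mark the shares of all tested genes, 12.9% and 13%. The lists of SKOV3 identity and ERK feedback genes lie at the top and those of contractile genes and mitochondrially encoded mRNAs at the bottom.

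Several metabolic lists held more genes higher with sh3 than lower. In the autophagy and lysosome list 20 of 42 tested genes were higher and 3 lower (median log2 difference 0.14). That is 54.8% called, beside 25.9% of all tested genes. ATG12, the ubiquitin-like protein that is joined to ATG5 when autophagosomes form, was at 151, 152 and 155 CPM with sh1, 271, 272 and 259 with sh3 and 277, 287 and 279 with shNC. The sh1 values alone were low, and the log2 difference was 0.81 ± 0.03 (adjusted p = 1.2e-08, edgeR). The lysosomal protease CTSS was higher by 0.73 ± 0.16, while MITF, a factor that drives lysosomal genes, and the lysosomal membrane protein LAMP2 were lower, at -0.68 ± 0.10 and -0.23 ± 0.04. The call of CTSS was lost with limma on FPKM without a filter (adjusted p = 0.063). In the cholesterol list 13 of 30 genes were higher and 2 lower (median 0.09, 50% called). Its summed level was 636 to 660 FPKM in sh1, 711 to 725 in sh3 and 1098 to 1144 in shNC, so both lines were below shNC. EBP, a sterol isomerase, was at 11.4, 6.21 and 11.7 CPM with sh1, 17.8, 16.1 and 14.9 with sh3 and 20.3, 17.9 and 21.5 with shNC, a call lost with limma on FPKM without a filter and without sh3 replicate 1 (adjusted p = 0.056 in both). DHCR7, an enzyme of a late step of synthesis, was lower, at -0.13 ± 0.04. The call of DHCR7 was lost under 10 alternatives, including library totals in place of TMM and the omission of sh1 replicate 1 or 3, sh3 replicate 2 or 3 or shNC replicate 1.

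Genes of redox defence were called higher with sh3 in 16 of 35 cases and lower in 5 (median 0.12). That is 60% called, beside 25.9% of all tested genes. The summed level of the redox list was 4263 to 4435 FPKM in sh1, 5331 to 5713 in sh3 and 6761 to 7002 in shNC. AKR1C1 and AKR1C2 encode aldo-keto reductases and are close paralogs whose reads can be hard to assign. AKR1C1 was at 47.0, 35.1 and 44.4 CPM with sh1, 96.9, 84.8 and 92.0 with sh3 and 191, 182 and 210.1 with shNC. AKR1C2 was at 13.7, 12.1 and 13.7 CPM with sh1, 29.9, 23.9 and 28.5 with sh3 and 56.5, 52.0 and 56.1 with shNC, in the same order. HMOX1, which degrades heme, was lower with sh3, at -0.68 ± 0.07, and so was the transferrin receptor TFRC, at -0.38 ± 0.04. Without shNC replicate 3 the lower genes numbered 8. Hypoxia and glycolysis genes were higher in 15 of 39 cases and lower in 6 (53.8% called). NDRG1 was at 47.2, 43.3 and 41.6 CPM with sh1 and 72.3, 70.3 and 74.8 with sh3. HIF1A, the oxygen-regulated subunit of the hypoxia factor, was lower with sh3, at 1266, 1236 and 1258 CPM with sh1, 878, 882 and 875 with sh3 and 1011, 1017 and 1039 with shNC. In the list of ATF4 and amino acid stress genes 7 of 30 were higher and 6 lower (43.3% called). DDIT4, a stress-induced inhibitor of mTORC1, was at 17.6, 15.9 and 16.8 CPM with sh1, 38.4, 31.5 and 36.8 with sh3 and 97.7 ± 10.3 with shNC (SD, n = 3). The amino acid carrier SLC7A5 was at 1494, 1532 and 1513 CPM with sh1 and 1044, 1073 and 1089 with sh3, a call lost with limma on FPKM without a filter (adjusted p = 0.054). PLAAT4, a retinoid-induced gene, was at 3.68, 2.99 and 5.06 CPM with sh1, 13, 11.9 and 11.4 with sh3 and 37.6, 44.8 and 28.8 with shNC. Its retinoid list had 10 of 28 higher and 4 lower (50% called).

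Lists of cell stress and death were mixed. Of 33 tested apoptosis regulators 10 were higher with sh3 and 2 lower, or 36.4% called beside 25.9% of all tested genes. Among genes at 1 CPM or more in shNC 5148 of 15002 were called. The higher regulators numbered 6 without sh1 replicate 1 or 3 or sh3 replicate 2 or 3. The death ligand TNFSF10 was at 17.6, 15.3 and 15.4 CPM with sh1, 25, 26.7 and 26.4 with sh3 and 51.0, 55.2 and 32.7 with shNC, a call lost with limma on FPKM without a filter (adjusted p = 0.057). BIRC2, an inhibitor of apoptosis, was lower, at -0.14 ± 0.03. Among 25 p53 targets 3 were higher and 5 lower (32.0% called). The stress gene GADD45A was lower, at 87.0, 97.6 and 92.8 CPM with sh1 and 68.3, 71.6 and 66.7 with sh3. In the unfolded protein response list 3 of 28 genes were higher and 9 lower (42.9% called), or 5 lower without sh1 replicate 3. SYVN1, a ubiquitin ligase that clears misfolded proteins, was higher, at 0.47 ± 0.07, and CREB3L2, a factor released from the endoplasmic reticulum, lower, at -0.24 ± 0.05.

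Lipid, transport and lineage genes followed. Of 38 fatty acid and lipid genes 10 were higher with sh3 and 6 lower (42.1% called). The higher ones numbered 6 without replicate 3 of sh1 or of sh3. The desaturase FADS2 was at 131, 126 and 133 CPM with sh1, 178, 163 and 169 with sh3 and 406, 392 and 321 with shNC, and the fat-cell lipase PNPLA2 at 71.6, 68.6 and 77.0 CPM with sh1 and 92.4, 95.4 and 95.7 with sh3. Among 19 drug transporters 1 was higher and 3 lower, a called share of 21.1% that is below the 25.9% of all tested genes, with ABCA3, a lipid exporter, at 12.4, 12.4 and 13 CPM with sh1 and 8.10, 8.50 and 7.75 with sh3, and the copper importer SLC31A1 at -0.42 ± 0.05. Of 23 ovarian and Mullerian genes 6 were higher and 3 lower (39.1% called). Mesothelin, MSLN, a surface antigen of ovarian cancer, was at 10.5, 11.6 and 10.4 CPM with sh1, 15.7, 19.0 and 17.4 with sh3 and 28.3, 28.0 and 39.5 with shNC. Among 11 S100 genes 5 were higher and 2 lower (63.6% called). S100A10, the partner of annexin A2, was at 161, 162 and 164 CPM with sh1 and 122, 118 and 111 with sh3. Of 20 histone genes 4 were higher and 0 lower (20.0% called, also below that of all genes), and of these H1-2, a linker histone, had the highest mean with sh3 (7.36 CPM) and H2BC5 was at 1.10, 1.14 and 0.615 CPM with sh1 and 2.02, 1.75 and 2.01 with sh3.

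Growth-related genes were lower with sh3 than with sh1 by small amounts. In the G1/S and replication list 24 of 43 tested genes were lower and 4 higher (median log2 difference -0.15, 65.1% called). In the G2/M list 17 of 46 were lower and 1 higher (median -0.14, 39.1% called). Over all tested genes the called share was 25.9%. The summed level of the G2/M list was 2081 to 2124 FPKM in sh1, 1998 to 2039 in sh3 and 1115 to 1287 in shNC. Both hairpin lines were thus above shNC. The G2/M count fell to 10 without sh1 replicate 1 or sh3 replicate 1 and rose to 28 without shNC replicate 3, and limma on FPKM without a filter called 15 of the G1/S and 3 of the G2/M genes lower. CDK6, a kinase that starts the cycle, was at 108, 109.7 and 104 CPM with sh1, 80.8, 85.0 and 80.7 with sh3 and 60.8, 62.3 and 61.1 with shNC. The origin protein ORC6 was at 66.7, 72.1 and 65.9 CPM with sh1, 54.4, 54.7 and 49.7 with sh3 and 42.2, 47.3 and 47.1 with shNC. CDCA5, sororin, which protects sister cohesion, was lower, at -0.30 ± 0.06. RRM2 and CDC25B, a nucleotide reductase subunit and a cell cycle phosphatase, were higher with sh3, at 0.33 ± 0.06 and 0.22 ± 0.03. Of 50 ribosomal protein genes 25 were lower and 1 higher (median -0.12, 52% called). RPS13 differed most, at 153, 164 and 169 CPM with sh1 and 108, 111 and 114 with sh3. Scaling by library totals gave 21 of the G1/S, 15 of the G2/M and 22 of the ribosomal genes lower.

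The 13 mRNAs encoded by mitochondrial DNA were all lower with sh3, at -0.39 to -0.15 on the log2 scale (median -0.27), and MT-ND1 was at 2431, 2432 and 2364 CPM with sh1, 1898, 1905 and 1719 with sh3 and 1913, 1949.8 and 1876 with shNC. Mitochondrial DNA is copied into long polycistronic RNAs that hold most of these genes. Mitochondrial counts made up 4.52% to 4.61% of the sh1 libraries and 3.63% to 3.93% of the sh3 libraries. In the shNC libraries they made up 3.97% to 4.58%, a range that overlapped that of sh1. With library totals 13 were lower too, and with limma on FPKM without a filter 3 were. Of the nuclear genes of oxidative phosphorylation 5 of 43 were lower and 2 higher, or 16.3% called beside 25.9% of all tested genes, with 2 lower without sh1 replicate 3.

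The machinery in which STXBP6 acts was compared as a list of its own. Of 48 tested genes of exocytosis and SNARE complexes 13 were higher with sh3 and 10 lower, none of these by 2-fold or more. That is 47.9% called. Without sh3 replicate 2 the higher genes numbered 8. STX3, a syntaxin of the apical membrane, was at 20.2, 20.6 and 20.2 CPM with sh1, 37.3, 39.0 and 34.6 with sh3 and 34.3, 36.7 and 34.2 with shNC. RAB27B, which docks secretory vesicles, was at 13.9, 13.8 and 13.3 CPM with sh1, 19.4, 19.8 and 19.2 with sh3 and 21.7, 22.1 and 22.0 with shNC. SYT7, a calcium sensor of lysosome exocytosis, had 20.3, 21.4 and 21.5 CPM with sh1 and 10.3, 11.6 and 14.1 with sh3, and the exocyst subunit EXOC6 was at -0.45 ± 0.10. Among 23 genes of small RNA processing, the pathway that matures hairpins, 4 were higher with sh3 and 4 lower, with 2 higher without sh3 replicate 2. The called share was 34.8%, beside 25.9% of all tested genes and 5148 of the 15002 at 1 CPM or more in shNC. DICER1, which cuts hairpins, was at 94.2, 87.6 and 87.7 CPM with sh1, 63.3, 66.8 and 65.6 with sh3 and 76.3, 76.9 and 82.4 with shNC, and the nuclear exporter XPO5 was at -0.27 ± 0.03.

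For most genes the shNC level lay nearer that of sh3. The 2 comparisons with shNC share its 3 libraries, so their values are given side by side only. Against shNC 8243 genes were called with sh1 (38.7%) and 5719 with sh3 (26.9%). Over all 21296 tested genes the shNC mean was nearer that of sh3 in 61.6% of cases, over the genes called higher with sh3 in 74.0% (2025 of 2737) and over those called lower in 73.5% (2035 of 2770). Among the 226 genes at least 2-fold higher with sh3 at 1 CPM or more in shNC, the shNC mean was nearer sh3 for 201 and at or above both lines for 133. Among the 120 genes at least 2-fold lower it was nearer sh3 for 72 and nearer sh1 for 48.

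Of the 21296 tested genes 262 were called in all 3 comparisons with the lines on opposite sides of shNC, 143 higher with sh3 and 119 lower. A few of them are given here. AMTN, amelotin, a secreted protein of the enamel epithelium, had 102, 101 and 106 CPM with sh1, 24.6, 24.8 and 24.2 with sh3 and 44.4, 44.9 and 30.9 with shNC. TOX, a chromatin protein of lymphoid cells, was at 5.16, 5.37 and 4.69 CPM with sh1, 1.38, 1.71 and 1.28 with sh3 and 2.32, 2.91 and 2.21 with shNC. SHISA3, a Wnt and FGF antagonist, was at 5.37, 6.01 and 5.98 CPM with sh1, 21.5, 18.5 and 20.5 with sh3 and 13, 15.8 and 9.42 with shNC. In each of them the shNC values fell between those of the lines. LHX1, a homeobox factor of the early kidney and Mullerian duct, was likewise at 80.9, 88.3 and 78.3 CPM with sh1, 175, 172 and 171 with sh3 and 96.6, 98.6 and 103 with shNC. UGT1A6, a glucuronosyltransferase that shares its last exons with the other UGT1A genes, was at 44.1, 45.4 and 49.1 CPM with sh1, 23.9, 26.1 and 20.7 with sh3 and 35.0, 33.2 and 30.8 with shNC, and its reads may be split among them.

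The differences were spread over chromosomes 1 to 22 and X. By chromosome, the share of tested genes called higher with sh3 ran from 8.66% on chromosome 21 to 18.1% on chromosome 17, and the share called lower from 8.01% on chromosome 7 to 18.5% on chromosome 14. Chromosome Y is left out of this range, and in the mitochondrial genome 28 of 37 genes were lower and 0 higher. Neighbouring genes were called in 1 direction in 7 runs of at least 5 genes. On chromosome 17 (41513745 to 41615899) KRT15, KRT19, KRT9, KRT14 and KRT16 were all higher with sh3, at a median log2 difference of 2.02. On chromosome 2 (176121611 to 176188551) HOXD9, HOXD8, HOXD3 and HOXD4, homeobox genes of body patterning, and the noncoding genes HOXD-AS2 and HAGLR were higher, at a median of 0.59, where antisense and host reads cannot be told apart. The 1 run that was lower with sh3, on chromosome 4 from LARP1B to JADE1, had a median of -0.56. The number of runs fell to 3 without sh1 replicate 2, sh3 replicate 2 or sh3 replicate 3 and to 4 without sh1 replicate 1.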

How the data were processed

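RNA sequencing of 9 SKOV3 libraries was used, 3 each for sh1, sh3 and shNC. Per the submitters' processing notes, reads were trimmed and aligned with tools that include cutadapt 1.9, HISAT2 2.2.1 and StringTie 2.1.6 on GRCh38, and DESeq2 and edgeR are named there without versions. The deposited table gave read counts per gene and library, made by the authors with those tools, and the FPKM values beside the counts were also computed by the authors. Whether counting used the strand was not stated. FPKM served for levels between genes and for limma.

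The counts were fitted with edgeR 4.0.16 in R 4.3.3 (filterByExpr with a minimum count of 10, TMM scaling, quasi-likelihood test, 1 mean for each of the 3 groups over all 9 libraries), with sh3 minus sh1 as the contrast and Benjamini-Hochberg adjustment over all tested genes at 0.05. Log2 differences are given ± SE, and CPM are per TMM-scaled total. Where a floor was needed it was 3 counts per library. DESeq2 1.42.0, limma 3.58.1 on log2(FPKM + 1) of genes with a mean of at least 0.5 FPKM, other scalings, no filter, 6 libraries, a replicate block and the omission of each library were the alternatives.

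The named genes are STXBP6, the 15 with the largest called difference in each direction at a mean of at least 1 FPKM, genes called on opposite sides of shNC (up to 6 in each order), and the 2 most changed called members of each of 50 lists in each direction. The members and lists were chosen with earlier results of these data known. VIM, CDH1, TNC, FN1, CCN2, STARD3, GRB7, TIE1, ANGPT1, VEGFA, MMP14, MT-ND1, CPS1, KRT8, KRT18, MMP10, H1-2 and the low-count genes were named after their values were seen. Some genes that the rule takes have no value given here.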

Additional observations from a re-analysis of the deposited data

Results flagged for a closer look

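The naming rule takes 6 genes in each order for which sh1 and sh3 differed and were both called against shNC on opposite sides of it (edgeR, adjusted p under 0.05 in each comparison). Before the level and size limits of that rule, 262 of the 21296 tested genes had this pattern. The comparisons with shNC share its 3 libraries, and each group has too few libraries for a test of single outlying libraries.

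AMTN differed between the hairpins by -2.07 on the log2 scale, at 1.36 for sh1 and -0.71 for sh3 against shNC. CPA4 differed by -2.15, at 1.59 and -0.56. TOX differed by -1.80, at 1.03 and -0.77. KRT14 differed by 2.02, at -1.27 and 0.75. LRRC38 differed by 2.49, at -1.22 and 1.27. UCHL1 differed by 2.06, at -0.72 and 1.35. SHISA3 differed by 1.80, at -1.14 and 0.66.

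The other genes were KDR, which differed by 1.35, at -0.74 for sh1 and 0.62 for sh3 against shNC, and WNT9A, which differed by 1.49, at -0.64 and 0.85. The semaphorin SEMA3B differed by -1.43, at 0.75 and -0.69. DOCK4, an exchange factor for RAC, differed by -1.11, at 0.55 and -0.57, and its CPM were 14.2, 13.6 and 14 with sh1, 5.90, 6.80 and 6.65 with sh3 and 9.13, 9.30 and 10.2 with shNC. UGT1A6 differed by -0.97, at 0.48 and -0.49. No cause was tested for any of them.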

How the results depend on the processing

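The 5507 calls between the hairpins became 5779 with DESeq2, 5454 with library totals, 4574 without the filter, 5940 with the 6 hairpin libraries alone, 5066 and 5059 with limma at a pseudocount of 1 and 0.1, and 4312 to 5996 without 1 library. With limma on log2(FPKM + 1) and no filter 4169 were called, of which 1730 were lower in sh3. Differences of at least 2-fold, at 437 genes higher and 245 lower, numbered 59 and 23 with limma at a pseudocount of 1, 58 and 23 without its filter, and 171 and 88 at a pseudocount of 0.1, which shrinks low values less. With only genes at a shNC mean of 1 CPM or more, an alternative chosen after seeing the data, they were 226 and 120. The 7 runs of neighbouring genes became 4 without the filter and with limma without its filter, and 3 to 8 without 1 library. The 66 genes counted with sh3 only became 132 at a minimum of 3 counts and 38 at 10, both minimums chosen after seeing the data, and 102 to 134 without 1 library. The 24 of sh1 became 59 and 12, and 47 to 79.

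Of 3020 values of the 178 named genes other than STXBP6 under 17 alternatives, 2874 kept their call, 146 lost it and 0 reversed, and 149 genes were called under every alternative. Of 1700 list counts 147 moved by over 1.5 times. STXBP6 gave 0.55 to 1.97 without 1 library and passed no test.

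Replicate numbers did not pair the samples: same-numbered sh1 and sh3 libraries had correlations of deviations of -0.027, -0.027 and -0.032. The replicate block gave 5125 calls, 2550 higher and 2575 lower, with STXBP6 at 1.49. No sample correlated best with its own number. Depth limits STXBP6 and the genes counted in 1 line only.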

Other observations

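Some genes were counted with sh1 and at 0 in every sh3 library. PCDH20, a protocadherin of neural tissue, had 65, 71 and 72 counts in the sh1 libraries and 0, 0 and 51 in shNC. A gene on the same strand that overlaps it, ENSG00000197991, had the reverse pattern, with 0 counts in sh1, 12, 16 and 16 in sh3 and 24, 48 and 0 in shNC, so that reads of this locus may be split between them and the 0 in sh3 does not mean that the locus had no reads. SULF1, a sulfatase that trims heparan sulfate at the cell surface, had 48, 69 and 64 counts with sh1 and 8, 84 and 31 with shNC. BEX1, a neural signalling adaptor, had 17, 35 and 62 with sh1 and 22, 33 and 18 with shNC. These genes were chosen after their values were seen, and PCDH20, SULF1 and BEX1 were called lower with sh3 (edgeR, adjusted p = 0.017, 0.00093 and 0.00034). The call of SULF1 was lost under 1 of the 17 alternatives.

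Markers of neurons and of leukocytes that a carcinoma line can also express were detected. Of 11 tested neuron markers 2 were higher with sh3 and 0 lower (18.2% called beside 25.9% of all tested genes). Of 12 leukocyte markers only 1, CD68, had enough counts to be tested. The neuronal tubulin TUBB3 was at 227, 243 and 239.9 CPM with sh1, 284, 295 and 286 with sh3 and 149, 162 and 136 with shNC. The lysosomal macrophage protein CD68 was at 26.4, 24.6 and 26.8 CPM with sh1, 40.9, 42.8 and 42.4 with sh3 and 34.7, 31.7 and 33.1 with shNC, while the leukocyte marker PTPRC had 0 counts in all 6 hairpin libraries. Both TUBB3 and CD68 were higher with sh3 than with sh1, at log2 differences of 0.28 ± 0.05 and 0.70 ± 0.05 (edgeR, adjusted p under 0.05).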
